A study of Mus musculus with 72 samples.

Results

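Rasgrp3, Scube1, Gask1b, Cbfa2t3, Spsb1, Usp6nl and Cited2 are 7 genes of unrelated function that were chosen by their RNA counts in cultured mouse ovarian follicles, from the difference between 1 ng/ml FSH21 and untreated follicles. They were found by symbol among 56691 listed genes, and all 7 were among the 18727 genes with enough counts to be tested. The RNA came from early secondary follicles cultured for 24 h. FSH21 is the hypoglycosylated form of follicle-stimulating hormone and FSH24 the fully glycosylated form. The groups were FSH21 at 1 ng/ml, FSH24 at 1 ng/ml, FSH21 at 10 ng/ml, FSH24 at 10 ng/ml and untreated follicles, and all shared one medium with albumin, fetuin, insulin, transferrin and selenium. The sources used here give neither strain nor age. The 72 samples were 18 libraries, each run on 4 lanes, and a library counts here as 1 replicate. Each group had 3 libraries. Libraries numbered 1, 5 and 6 held both 1 ng/ml groups and 3 untreated cultures, and libraries numbered 2, 3 and 4 held both 10 ng/ml groups and the other untreated cultures. Each dose was set against the untreated libraries of its own numbers, since dose and number set cannot be told apart among treated libraries. The replicates are described as biological, but no animals or cultures are named for them, so a p-value here weighs an effect only against how these libraries scatter.

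FSH binds its receptor on granulosa cells, the somatic cells around the oocyte, and signals mainly through cyclic AMP and protein kinase A, with branches through PI3 kinase and small GTPases. Glycan chains on the hormone alter how fast and how strongly it binds the receptor. The 7 genes act at several levels of a cell's response. Rasgrp3 is an exchange factor that loads Ras and Rap with GTP in answer to diacylglycerol. Scube1 is a secreted and cell-surface protein with CUB and EGF-like domains, and Gask1b is a Golgi-associated protein of a secretory kinase family. Cbfa2t3, also called ETO2 or MTG16, is a transcriptional corepressor. Spsb1 is a SOCS-box adaptor that brings proteins to a Cullin-5 ubiquitin ligase, and Usp6nl, also called RN-tre, switches off the endosomal GTPase Rab5. Cited2 is a transcription coregulator that binds CBP and p300 and competes there with the hypoxia factor HIF1A.

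The genes lie on 7 different chromosomes, and all are protein-coding. Positions are from GENCODE M21 on GRCm38 (mm10), counted from 1. Rasgrp3 spans chr17:75435896-75529054 on the plus strand, Scube1 chr15:83604999-83725021 on the minus strand, and Gask1b, named Fam198b in that annotation, chr3:79884533-79946280 on the plus strand. Cbfa2t3 spans chr8:122625141-122699109 on the minus strand and Spsb1 chr4:149896283-149955043 on the minus strand. Usp6nl spans chr2:6322667-6446390 and Cited2 chr10:17723218-17725674, both on the plus strand. Antisense genes overlap exons of Gask1b by 711 bp (Gm36569, a mean of 29.5 counts per library), of Spsb1 by 103 bp (Gm13070, 4.73 counts) and of Cbfa2t3 by 295 bp (Gm10612, 0 counts). How strand was used in counting is not given in the sources used here, so reads within these shared stretches cannot be told apart. In all, exons cover 9598 bp in Gask1b, 4396 bp in Spsb1 and 8373 bp in Cbfa2t3.

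The promoters of 2 genes with higher and 2 with lower RNA under FSH are shown as examples of the sequence in front of genes that moved in opposite directions. The stretches are RefSeq sequence of GRCm38.p6, 5′ to 3′ on the strand of the gene, upstream of both the RefSeq and the GENCODE start. Capitals mark a match to a searched motif. They cover chr15:83725040-83725289 (minus, Scube1), chr8:122699110-122699359 (minus, Cbfa2t3), chr4:149955044-149955256 (minus, Spsb1) and chr2:6322507-6322666 (plus, Usp6nl).
Scube1: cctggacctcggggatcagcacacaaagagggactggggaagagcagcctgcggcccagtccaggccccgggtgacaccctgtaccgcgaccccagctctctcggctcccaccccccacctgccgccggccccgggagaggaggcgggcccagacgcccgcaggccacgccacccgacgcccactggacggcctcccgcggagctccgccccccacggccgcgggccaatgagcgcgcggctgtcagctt
Cbfa2t3: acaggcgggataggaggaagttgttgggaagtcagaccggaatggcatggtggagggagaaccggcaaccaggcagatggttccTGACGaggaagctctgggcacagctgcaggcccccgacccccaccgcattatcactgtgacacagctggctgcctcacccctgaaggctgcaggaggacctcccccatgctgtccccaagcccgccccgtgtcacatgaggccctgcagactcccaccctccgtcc
Spsb1: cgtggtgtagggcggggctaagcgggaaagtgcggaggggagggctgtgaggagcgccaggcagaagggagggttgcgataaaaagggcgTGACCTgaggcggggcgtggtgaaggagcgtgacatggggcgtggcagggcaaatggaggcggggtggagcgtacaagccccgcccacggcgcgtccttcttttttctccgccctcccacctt
Usp6nl: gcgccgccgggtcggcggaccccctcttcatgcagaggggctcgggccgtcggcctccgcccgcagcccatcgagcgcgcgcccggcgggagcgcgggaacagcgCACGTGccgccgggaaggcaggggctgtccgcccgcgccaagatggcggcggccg
The Scube1 stretch held none of the 7 motifs searched on both strands. Cbfa2t3 held TGACG, the core of the cyclic AMP response element, at 166 bases before its RefSeq start, a motif found in 20.8% of 32851 RefSeq promoter windows of 300 bases. Spsb1 held TGACCT, the reverse of the nuclear receptor core AGGTCA (16.3% of windows), and Usp6nl the E-box CACGTG (7.15%). Over the 10 RefSeq windows of the 7 genes, TGACG was in 1, AGGTCA in 2, CACGTG in 2, the AP-1 site TGANTCA in 1 (7.81% of all windows) and TATAAA in 1 (13.6%). The full element TGACGTCA, which contains TGACG (1.79%), and the FOXO site GTAAACA (3.65%) were in none of these windows. A match is a string of letters and not evidence of binding. The windows of Usp6nl and Scube1 that start upstream of the gene were 80.3% and 75.0% G or C, against a median of 52.7% over all windows, and that of Rasgrp3 was 48.3%.

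Libraries held 17.5 to 22.5 M counts (M, mega), with a median of 21.4 M. Levels are CPM, counts scaled to the TMM-adjusted library total. Per kilobase of exon, the untreated libraries numbered 2, 3 and 4 held most Spsb1 RNA (78.5 CPM per kb), then Cited2 (31.3), Usp6nl (15.5), Cbfa2t3 (6.09), Scube1 (4.93), Gask1b (2.78) and Rasgrp3 (1.25). The untreated libraries numbered 1, 5 and 6 gave the same order, with 87.4 CPM per kb for Spsb1 and 0.962 for Rasgrp3. Rasgrp3 rested on 114 to 288 counts in a library, and the other 6 genes on at least 510 counts. Granulosa markers (Fshr, Amh, Foxl2, Inha, Kitl, Esr2, Nr5a2) and oocyte markers (Gdf9, Bmp15, Zp2, Zp3, Figla, Nobox, Oosp1) had counts in all 18 libraries. Endothelial markers summed to 71.1 to 107 CPM and immune markers to 1.55 to 5.80 CPM across the libraries, with Tie1 at 0 counts in 5 libraries and Ptprc in 6.

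The contrast that chose the genes was FSH21 at 1 ng/ml against untreated libraries numbered 1, 5 and 6, so its values are a description with no test. A gene counted as called when the adjusted p of edgeR's quasi-likelihood test over all 18727 genes was under 0.05. By that rule 6 of the 7 genes were called, 4 higher and 2 lower, where 0.128% of all tested genes were called (24 genes), 0.0908% higher and 0.0374% lower. The treated and untreated libraries did not overlap for the same 6 genes, as was the case for 13% of all genes. Both counts follow from how the genes were chosen, and nothing is read from them. The count of 24 rests on single libraries: it was 0 without FSH21 number 5 or untreated number 6, 2 without FSH21 number 1 and 5 without untreated number 1. Cited2 did not meet that rule.

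Of the genes that were higher at the low dose, Scube1 measured 103, 74.2 and 78.5 CPM with FSH21 at 1 ng/ml (numbers 1, 5 and 6), against 50.2, 53.1 and 44.0 CPM in untreated follicles. Gask1b measured 46.9, 55.0 and 43.9 CPM with FSH21, against 27.1, 34.6 and 23.3 CPM untreated. Cbfa2t3 measured 91.3, 73.1 and 71.1 CPM with FSH21, against 51.4, 59.0 and 47.4 CPM untreated. For these genes every FSH21 library lay above every untreated one, and number 1 gave the highest FSH21 value for Scube1 and Cbfa2t3. Rasgrp3 measured 11.1, 10.1 and 8.68 CPM with FSH21, against 6.09, 5.34 and 5.43 CPM untreated, again without overlap. The log2 fold changes were 0.82 (SE 0.15) for Rasgrp3, 0.80 (SE 0.13) for Scube1, 0.78 (SE 0.14) for Gask1b and 0.58 (SE 0.10) for Cbfa2t3. Ranked by size among the 17 higher genes called, these stood 6th, 7th, 8th and 13th.

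Of the genes that were lower, Spsb1 measured 313, 247 and 282 CPM with FSH21 at 1 ng/ml, against 386, 391 and 373 CPM in untreated follicles. Usp6nl measured 112, 111 and 111 CPM with FSH21, against 133, 132 and 139 CPM untreated. Both groups were apart for both genes, and the coefficient of variation of the 3 Usp6nl values with FSH21 was 0.707%. The log2 fold changes were −0.45 (SE 0.08) for Spsb1 and −0.27 (SE 0.05) for Usp6nl, the 6th and 7th in size of the 7 lower genes called. Cited2 measured 57.8, 64.6 and 68.0 CPM with FSH21, against 57.0, 88.3 and 86.4 CPM untreated. Number 1 of the untreated libraries lay below all 3 FSH21 libraries, so the groups overlapped, and the log2 fold change of −0.28 (SE 0.12) came from numbers 5 and 6. Within number 1 the Cited2 ratio of FSH21 to untreated was 1.01, against 0.732 in number 5 and 0.788 in number 6. For the other 6 genes all 3 numbers gave the same direction.

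**Figure D1:**
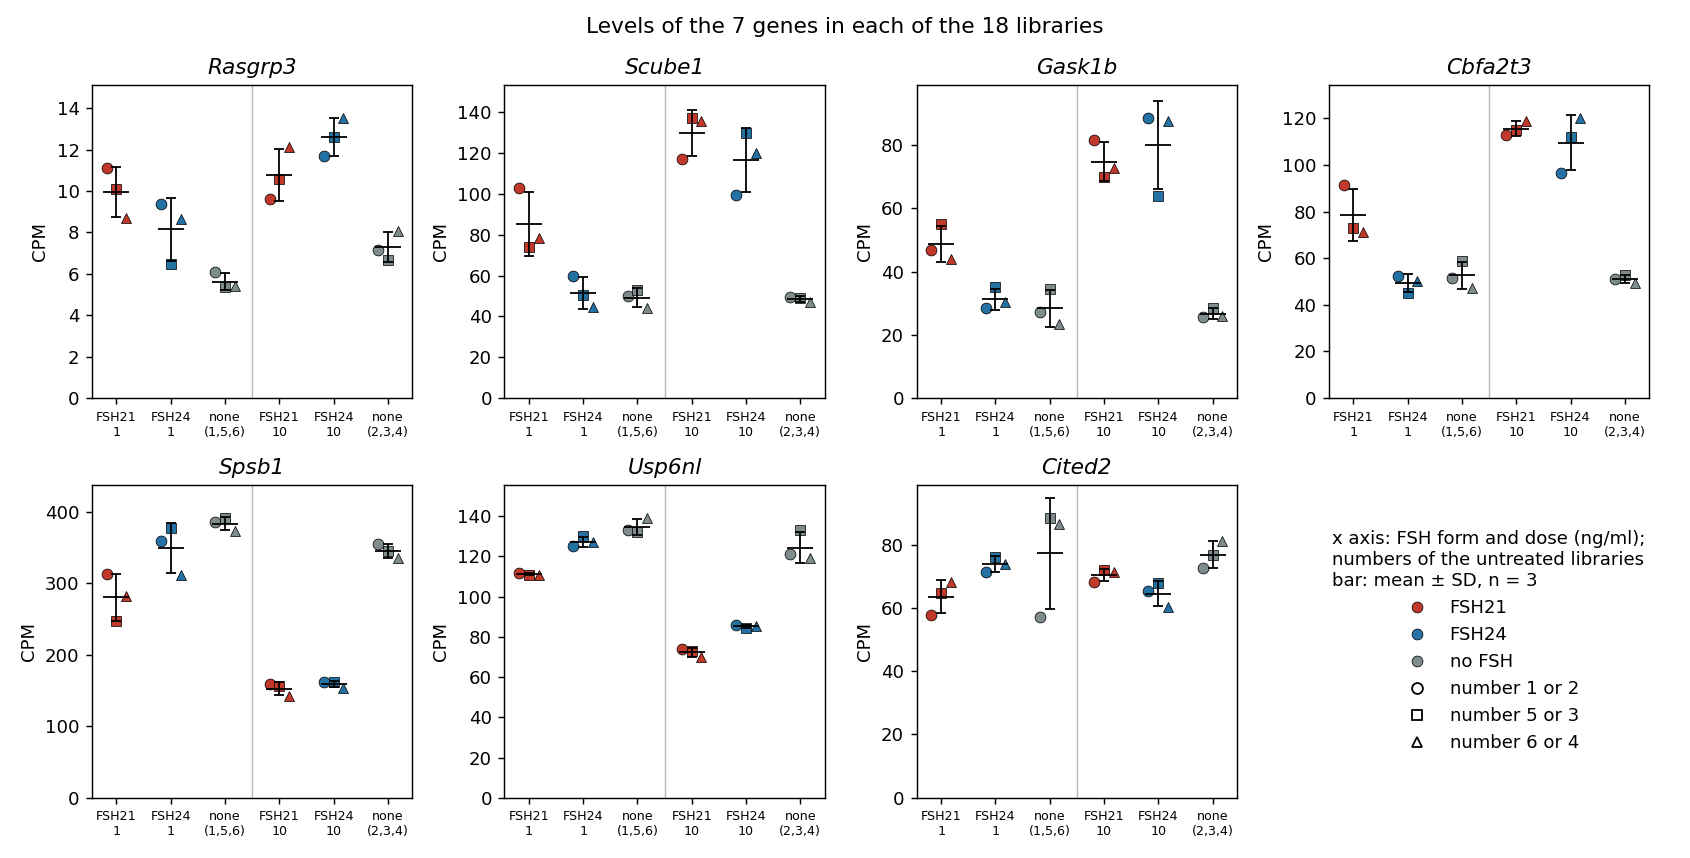
Level of each gene in CPM (vertical axis, linear, from 0) in each of the 18 libraries, by FSH form and dose. Points are libraries, shapes mark their numbers, bars show mean ± SD (n = 3), and the grey line divides the 1 ng/ml set from the 10 ng/ml set. At 10 ng/ml Spsb1 lay at 142 to 162 CPM with either form and at 335 to 355 CPM in untreated follicles.

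The contrast that chose the genes used neither the libraries at 10 ng/ml nor untreated numbers 2, 3 and 4, but the genes were proposed with earlier results of all these libraries known. At 10 ng/ml 6 of the 7 passed the test with each form, 4 higher and 2 lower. The share of all tested genes called was 10.2% with FSH21, 5.96% higher and 4.21% lower, and 8.42% with FSH24, 5.12% higher and 3.3% lower. The counts behind these shares, 1906 and 1577 genes, were 1250 with FSH21 without untreated number 4, and with FSH24 982 without untreated number 4, 1029 without FSH24 number 2 and 995 without FSH24 number 4. With each form the treated and untreated libraries did not overlap for any of the 7 genes, as was the case for 27.7% of all genes with FSH21 and 24.5% with FSH24. The FSH21 and FSH24 comparisons share the same 3 untreated libraries and are not independent. In follicle RNA, a change in the number of cells of a type and a change in RNA per cell cannot be told apart.

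Gask1b rose most. It measured 81.7, 69.8 and 72.7 CPM with FSH21 at 10 ng/ml (numbers 2, 3 and 4), 88.4, 64.0 and 87.5 CPM with FSH24, and 25.5, 28.6 and 26.0 CPM in untreated follicles. Every treated library lay far above the highest control, with FSH24 number 3 the lowest. By edgeR's quasi-likelihood test its log2 fold change was 1.48 with FSH21 (SE 0.14, adjusted p = 5.74e-06) and 1.58 with FSH24 (SE 0.14, adjusted p = 5.5e-06), which is 2.80-fold with FSH21 and 3.00-fold with FSH24.

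Scube1, the secreted CUB and EGF-like protein, measured 117, 137 and 136 CPM with FSH21, 99.3, 130 and 120 CPM with FSH24, and 49.6, 48.9 and 46.9 CPM in untreated follicles. The untreated values varied little, and number 2 was the lowest with either form. The log2 fold change was 1.42 with FSH21 (SE 0.13, adjusted p = 4.13e-06) and 1.26 with FSH24 (SE 0.13, adjusted p = 2.31e-05).

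The corepressor gene Cbfa2t3 measured 113, 115 and 119 CPM with FSH21, 96.7, 112 and 120 CPM with FSH24, and 51.1, 52.6 and 49.3 CPM in untreated follicles. Every treated library lay above every control, and FSH24 number 2 was the lowest of them. The log2 fold change was 1.18 with FSH21 (SE 0.10, adjusted p = 4.8e-07) and 1.10 with FSH24 (SE 0.10, adjusted p = 1.92e-06).

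Rasgrp3 rose least of the 4. It measured 9.60, 10.6 and 12.1 CPM with FSH21, 11.7, 12.6 and 13.5 CPM with FSH24, and 7.16, 6.65 and 8.09 CPM in untreated follicles. Its log2 fold change was 0.56 with FSH21 (SE 0.15, adjusted p = 0.0202) and 0.79 with FSH24 (SE 0.15, adjusted p = 0.00212). The FSH21 call ended when 1 of 4 libraries was left out, with adjusted p = 0.0645 without untreated number 2, 0.0989 without untreated number 3, 0.0545 without FSH21 number 3 and 0.108 without FSH21 number 4. The FSH24 call was kept under all 11 alternatives run.

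The Cullin-5 adaptor gene Spsb1 fell to less than the level of any control library with both forms. It measured 159, 156 and 142 CPM with FSH21, 162, 162 and 154 CPM with FSH24, and 355, 345 and 335 CPM in untreated follicles. The log2 fold change was −1.18 with FSH21 (SE 0.08, adjusted p = 3.78e-08) and −1.11 with FSH24 (SE 0.08, adjusted p = 2.87e-07), leaving 0.442 of the untreated level with FSH21 and 0.462 with FSH24.

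The Rab5 GTPase-activating gene Usp6nl measured 73.8, 73.1 and 69.9 CPM with FSH21, 86.0, 84.4 and 85.3 CPM with FSH24, and 121, 133 and 119 CPM in untreated follicles. The coefficient of variation was 2.87% with FSH21 and 0.898% with FSH24, and the FSH21 libraries lay below the FSH24 libraries. The log2 fold change was −0.78 with FSH21 (SE 0.05, adjusted p = 1.7e-08) and −0.55 with FSH24 (SE 0.05, adjusted p = 2.55e-06).

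Cited2 was not called with either form. It measured 68.3, 71.8 and 71.4 CPM with FSH21, 65.3, 67.9 and 60.2 CPM with FSH24, and 72.6, 76.8 and 81.1 CPM in untreated follicles. The treated libraries all lay below the controls, with the highest FSH21 library at 71.8 CPM and the lowest control at 72.6 CPM. The log2 fold change was −0.12 with FSH21 (95% interval −0.37 to 0.12, adjusted p = 0.612) and −0.25 with FSH24 (95% interval −0.50 to −0.01, adjusted p = 0.225), which misses the threshold after adjustment.

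**Figure D2:**
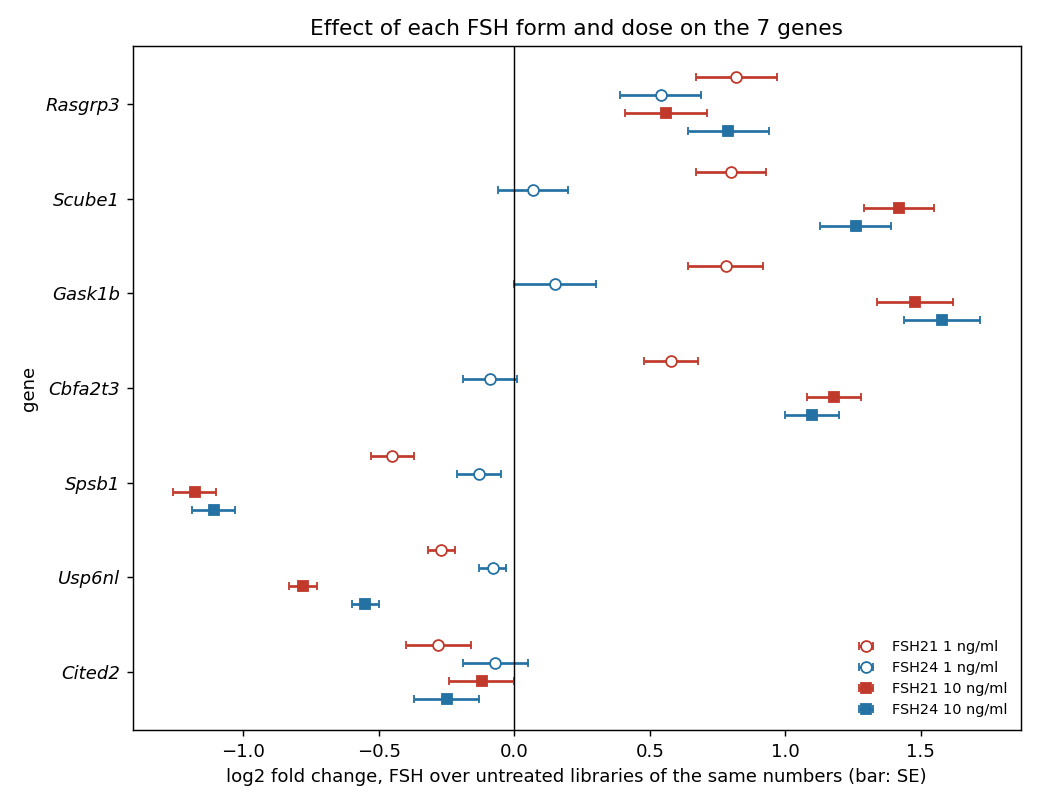
Log2 fold change of each gene (horizontal axis) with FSH21 (red) and FSH24 (blue) over the untreated libraries of the same numbers, at 1 ng/ml (open circles, a description) and 10 ng/ml (filled squares, tested); bars are SE. At 1 ng/ml Scube1 sits at 0.80 with FSH21 and 0.07 with FSH24, and at 10 ng/ml at 1.42 with FSH21 and 1.26 with FSH24.

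Set directly against each other at 10 ng/ml, FSH21 and FSH24 gave no called gene among the 7 or among all 18727 (0%) by edgeR's quasi-likelihood test. Of all genes, 410 had an unadjusted p under 0.05, fewer than that cut alone would pass with no difference between forms. DESeq2 called 5. The adjusted p was 1 for each of the 7 genes. The 95% intervals of the log2 difference, FSH21 over FSH24, were −0.53 to 0.08 for Rasgrp3, −0.11 to 0.43 for Scube1, −0.39 to 0.19 for Gask1b and −0.12 to 0.28 for Cbfa2t3. They were −0.23 to 0.10 for Spsb1 and −0.12 to 0.38 for Cited2. Usp6nl stood apart from these: its mean was 72.3 ± 2.07 CPM with FSH21 and 85.2 ± 0.766 CPM with FSH24 (SD, n = 3 each), lower with FSH21 in all 3 numbers, with a log2 difference of −0.24 (95% interval −0.34 to −0.13). It was called by DESeq2 (adjusted p = 0.0439) and under none of the 10 other alternatives. The groups did not overlap for Usp6nl and Cited2, 2 of the 7 genes, where 7.09% of all genes did not.

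At 1 ng/ml the forms are described without a test, since the FSH21 libraries and the controls there chose the genes. FSH24 at 1 ng/ml gave no called gene among all 18727 (0%), and DESeq2 called 1. An unadjusted p under 0.05 was reached by 1119 genes, somewhat more than that cut alone would pass with no difference. Scube1 measured 59.6, 50.5 and 44.4 CPM with FSH24 at 1 ng/ml, overlapping its untreated range of 44.0 to 53.1 CPM. Gask1b measured 28.6, 35.0 and 30.3 CPM, Cbfa2t3 52.4, 45.0 and 50.4 CPM, and Spsb1 359, 378 and 311 CPM with FSH24 at this dose, all overlapping their controls. Cited2 overlapped as well, at 71.3, 76.2 and 73.8 CPM. Rasgrp3, at 9.37, 6.45 and 8.63 CPM, and Usp6nl, at 125, 130 and 127 CPM, did not overlap their controls, 2 of 7 genes where 10.3% of all genes did not.

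FSH24 at 1 ng/ml gave log2 fold changes between −0.13 and 0.15 for the genes other than Rasgrp3, which stood at 0.54 (SE 0.15). With FSH21 over FSH24 at 1 ng/ml the log2 difference was 0.73 (SE 0.13) for Scube1, 0.67 (SE 0.10) for Cbfa2t3, 0.63 (SE 0.14) for Gask1b and 0.29 (SE 0.15) for Rasgrp3. It was −0.31 (SE 0.08) for Spsb1, −0.22 (SE 0.12) for Cited2 and −0.19 (SE 0.05) for Usp6nl. The libraries of the forms did not overlap for 5 of the 7 genes, with overlap for Rasgrp3 and Spsb1, where 14.9% of all genes did not overlap. The call rule held for 2 of all tested genes there (0.0107%), both higher with FSH21, and Cbfa2t3 was one of them. Nothing is read from these counts, since the same FSH21 libraries chose the genes.

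The doses were then set side by side. As a share of the log2 fold change at 10 ng/ml, FSH21 at 1 ng/ml reached 56.3% for Scube1, 52.7% for Gask1b, 49.2% for Cbfa2t3, 38.1% for Spsb1 and 34.6% for Usp6nl. FSH24 reached 5.56% for Scube1, 9.49% for Gask1b, 11.7% for Spsb1 and 14.5% for Usp6nl, and Cbfa2t3 stood at −8.18%, on the other side of its controls. The step in log2 fold change with FSH24 was 1.44 (SE 0.20) for Gask1b, 1.20 (SE 0.19) for Scube1 and 1.20 (SE 0.14) for Cbfa2t3. With FSH21 it was 0.70 (SE 0.20) for Gask1b, 0.63 (SE 0.19) for Scube1 and 0.61 (SE 0.14) for Cbfa2t3. For Spsb1 the step was −0.73 (SE 0.11) with FSH21 and −0.98 (SE 0.11) with FSH24, and for Usp6nl −0.51 (SE 0.07) with FSH21 and −0.46 (SE 0.07) with FSH24. Rasgrp3 reached 146% with FSH21 and 68.4% with FSH24, and the uncalled Cited2 233% with FSH21 and 28% with FSH24. No test of these shares or steps was made, and the number sets differ along with the dose. The FSH21 libraries at 1 ng/ml and their controls chose the genes. That choice can raise the FSH21 shares and shrink the FSH21 steps, so nothing is read from the forms side by side.

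For Rasgrp3 the 95% interval of the step was −0.71 to 0.19 with FSH21 and −0.19 to 0.70 with FSH24. These intervals are a description with no test, since the FSH21 libraries at 1 ng/ml and their controls chose the genes. With FSH21 its log2 fold change was 0.82 at 1 ng/ml and 0.56 at 10 ng/ml, a difference of −0.26 (SE 0.21), while its mean level was 9.93 ± 1.20 CPM at 1 ng/ml and 10.8 ± 1.24 CPM at 10 ng/ml (SD, n = 3 each). With FSH24 its log2 fold change was 0.54 at 1 ng/ml and 0.79 at 10 ng/ml, a difference of 0.25 (SE 0.21), and its mean level was 8.15 ± 1.52 CPM at 1 ng/ml and 12.6 ± 0.925 CPM at 10 ng/ml (SD, n = 3 each). Its untreated level differed between the number sets, at 7.30 ± 0.734 CPM in numbers 2, 3 and 4 and 5.62 ± 0.411 CPM in numbers 1, 5 and 6, a log2 difference of 0.38 (SE 0.15) without overlap. Spsb1 also differed between the untreated sets without overlap, at 345 ± 10.1 CPM in numbers 2, 3 and 4 and 384 ± 9.21 CPM in numbers 1, 5 and 6. These were 2 of 7 genes, where 11% of all genes did not overlap between the untreated sets. The other 5 genes differed by −0.11 to −0.01 on the log2 scale.

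Relatives of the 7 genes and genes of their pathways were compared at 10 ng/ml. The lists were drawn up with earlier results of these data known, and medians are given for those with counts, beside a median of 0.000 over all tested genes. Each count of list members stands against 5.96% of all tested genes called higher and 4.21% lower with FSH21, and 5.12% higher and 3.3% lower with FSH24.

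Among the relatives of Rasgrp3, Rasgrp1, another diacylglycerol-regulated exchange factor, rose with both forms, to 8.06 ± 2.27 CPM with FSH21 and 6.87 ± 1.14 CPM with FSH24, against 1.85 ± 0.540 CPM in untreated follicles (SD, n = 3 each). By edgeR's test its log2 fold change was 2.12 (SE 0.35, adjusted p = 0.000572) with FSH21 and 1.89 (SE 0.35, adjusted p = 0.00196) with FSH24. Leaving out any one library did not end these calls. Rasgrp4, at 2.46 ± 0.333 CPM with FSH21 and 1.16 ± 0.576 CPM untreated, was not called (adjusted p = 0.112), but was with the replicate number as a block (log2 fold change 1.2, adjusted p = 0.034). With FSH24 it was at 0.51 (adjusted p = 0.566). Rasgrp2 was low, at 0.516 ± 0.222 CPM with FSH21, 0.498 ± 0.0877 CPM with FSH24 and 0.777 ± 0.365 CPM untreated, and was not called.

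Neither SCUBE relative was called, and both had negative log2 fold changes while Scube1 rose. Scube3 measured 9.11 ± 0.353 CPM with FSH21, 8.72 ± 0.689 CPM with FSH24 and 11.4 ± 3.89 CPM untreated (log2 fold change −0.32 with FSH21, adjusted p = 0.391, and −0.38 with FSH24, adjusted p = 0.294). Scube2 measured 1.21 ± 0.528 CPM with FSH21, 1.44 ± 0.757 CPM with FSH24 and 1.91 ± 0.518 CPM untreated (−0.65 with FSH21, adjusted p = 0.428, and −0.40 with FSH24, adjusted p = 0.675).

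Of 9 measured Golgi and secreted kinase genes, 2 rose with FSH21 and none fell (median −0.03), and with FSH24 2 rose and 1 fell (median −0.01). Gask1a, the paralog of Gask1b, rose to 30.2 ± 7.17 CPM with FSH21 and 28.9 ± 3.58 CPM with FSH24, against 18.1 ± 0.970 CPM untreated. Its log2 fold change was 0.74 with FSH21 (SE 0.19, adjusted p = 0.021) and 0.67 with FSH24 (SE 0.19, adjusted p = 0.0386). The FSH21 call ended without FSH21 number 2 or 4 or untreated number 3 or 4 (adjusted p up to 0.111), and the FSH24 call without any library but FSH24 number 3 (up to 0.173). Dipk2a, a secretory pathway protein of a related family, rose to 168 ± 13 CPM with FSH21 and 138 ± 18.6 CPM with FSH24, against 109 ± 8.74 CPM untreated (log2 fold change 0.62 with FSH21, adjusted p = 7.77e-05, and 0.34 with FSH24, adjusted p = 0.0148). The FSH21 call held without any one library, while the FSH24 call ended without FSH24 number 2 or 3 or untreated number 3 or 4 (up to 0.127). Fam20c, the kinase of secreted proteins, fell with FSH24 to 28.7 ± 5.79 CPM, against 39.4 ± 3.62 CPM untreated (log2 fold change −0.46, adjusted p = 0.0282). This call ended without FSH24 number 2 or 4 or untreated number 3 or 4 (up to 0.112), and the FSH21 level was 34.4 ± 3.60 CPM (adjusted p = 0.414).

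The paralogs of Cbfa2t3 were not called with either form. Cbfa2t2 measured 71.7 ± 2.15 CPM with FSH21, 73.2 ± 1.76 CPM with FSH24 and 75.1 ± 4.09 CPM untreated, and Runx1t1 16.6 ± 1.93 CPM with FSH21, 14.6 ± 3.00 CPM with FSH24 and 16.7 ± 1.61 CPM untreated. Among genes of the MTG corepressor complexes, the histone deacetylase gene Hdac1 was called with FSH21 at 0.32 (adjusted p = 0.00649), ending without FSH21 number 3 or untreated number 4 (up to 0.0562). The E-protein gene Tcf12 was called with FSH21 at 0.18 (adjusted p = 0.0476), ending without any one library (up to 0.231). By edgeR's test neither was called with FSH24, where Hdac1 was at 0.22 (adjusted p = 0.0619) and Tcf12 at 0.14 (adjusted p = 0.158). The difference between forms was not called for either gene.

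Of 11 genes of the SPSB family and its ligase, 2 fell with each form and none rose (median −0.08 with either). Spsb4, a paralog of Spsb1, fell to 30.0 ± 1.60 CPM with FSH21 and 35.4 ± 0.565 CPM with FSH24, against 49.7 ± 1.60 CPM in untreated follicles. By edgeR's test its log2 fold change was −0.73 with FSH21 (SE 0.09, adjusted p = 4.19e-05) and −0.49 with FSH24 (SE 0.09, adjusted p = 0.00197). Nos2, the inducible nitric oxide synthase and a known target of SPSB proteins, fell to 87.4 ± 7.06 CPM with FSH21 and 106 ± 2.90 CPM with FSH24, against 196 ± 19.1 CPM untreated (log2 fold change −1.16 with FSH21, adjusted p = 3.44e-06, and −0.88 with FSH24, adjusted p = 8.08e-05). Leaving out any one library did not end these 4 calls. The Nos2 value is RNA, while SPSB proteins act on the enzyme. Spsb2 measured 4.65 ± 0.378 CPM with FSH21, 5.63 ± 0.714 CPM with FSH24 and 4.49 ± 0.973 CPM untreated, and Spsb3 15.3 ± 1.14 CPM with FSH21, 15.4 ± 1.67 CPM with FSH24 and 17.3 ± 2.18 CPM untreated, and neither was called.

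The next list held 20 genes of the Rab5 cycle and of Rab GTPase-activating proteins more widely. Of these, 1 rose and 5 fell with FSH21 (median −0.04), and none rose and 1 fell with FSH24 (median −0.01). Of all genes 5.96% rose and 4.21% fell with FSH21, and 5.12% rose and 3.3% fell with FSH24. The 1 gene that fell with FSH24 was Tbc1d4, which is not a regulator of Rab5 itself. Tbc1d4, a Rab GTPase-activating protein like Usp6nl, fell with both, to 23.3 ± 1.78 CPM with FSH21 and 28.3 ± 1.91 CPM with FSH24, against 53.8 ± 7.03 CPM untreated (log2 fold change −1.21 with FSH21, adjusted p = 6.59e-07, and −0.93 with FSH24, adjusted p = 1.92e-05), and no single library ended either call. Eps8, an actin regulator that binds Usp6nl, fell with FSH21 to 75.5 ± 3.90 CPM, against 95.5 ± 9.55 CPM untreated (−0.34, adjusted p = 0.00466), and so did Rabgef1, an exchange factor of Rab5, to 41.4 ± 1.41 CPM, against 51.7 ± 2.26 CPM (−0.32, adjusted p = 0.00713). The Eps8 and Rabgef1 calls held without any one library. Rin2, another Rab5 exchange factor, was called at −0.54 (adjusted p = 0.0264), which ended without any library but untreated number 2 (up to 0.0829). The endosomal tether gene Eea1 was called at −0.22 (adjusted p = 0.0353), which ended without FSH21 number 3 or 4 or untreated number 2 or 3 (up to 0.139). Rab5a itself was called higher at 0.26 (adjusted p = 0.0215), which ended without FSH21 number 2 or 3 or untreated number 2 or 4 (up to 0.149). With FSH24 these 5 genes had log2 fold changes of −0.31 to 0.22 and were not called, and the difference between forms was not called either.

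Of 12 genes of the CITED family and its partners, 2 rose and none fell with each form (median 0.12 with FSH21 and 0.10 with FSH24), where 5.96% of all genes rose with FSH21 and 5.12% with FSH24. Cited4, a paralog of Cited2, rose to 20.5 ± 0.730 CPM with FSH21 and 20.1 ± 1.43 CPM with FSH24, against 14.2 ± 0.413 CPM untreated (log2 fold change 0.53 with FSH21, adjusted p = 0.0153, and 0.50 with FSH24, adjusted p = 0.0258). The FSH21 call ended without FSH21 number 2 or 4 or untreated number 3 or 4 (up to 0.068), and the FSH24 call without any library but FSH24 number 3 (up to 0.109). Nr5a1, the steroidogenic factor SF-1, rose to 139 ± 6.92 CPM with FSH21 and 132 ± 7.37 CPM with FSH24, against 103 ± 7.41 CPM untreated (0.43 with FSH21, adjusted p = 0.00236, and 0.36 with FSH24, adjusted p = 0.0115). Its FSH21 call held without any one library, while its FSH24 call ended without FSH24 number 2 or 3 or untreated number 3 (up to 0.0869). Cited1, at 6.93 ± 1.89 CPM with FSH21 and 10.8 ± 2.60 CPM untreated, was not called (−0.65, adjusted p = 0.0561), but was with the replicate number as a block (−0.64, adjusted p = 0.00297). It was also called without FSH21 number 2 (−0.91, adjusted p = 0.0155) and without untreated number 3 (−0.85, adjusted p = 0.0165). With FSH24 it measured 8.02 ± 1.54 CPM (adjusted p = 0.245).

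**Figure D3:**
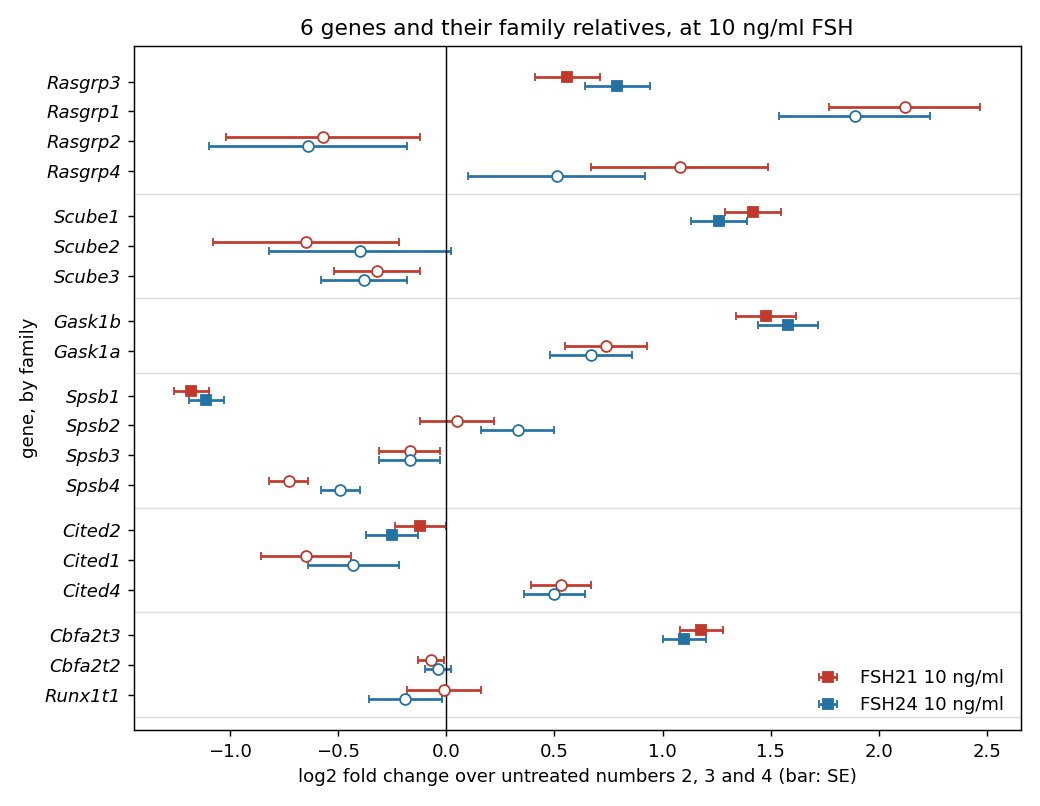
Log2 fold change (horizontal axis) of 6 of the genes (filled squares) and their family relatives (open circles) with FSH21 (red) and FSH24 (blue) at 10 ng/ml over untreated numbers 2, 3 and 4; bars are SE. Spsb4 lies on the side of Spsb1 at −0.73 with FSH21 and −0.49 with FSH24, and Gask1a on that of Gask1b at 0.74 with FSH21 and 0.67 with FSH24. The SCUBE relatives have negative values, but neither was called.

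Cell-type markers were set beside these changes. Their counts of called genes at 10 ng/ml stand against 5.96% of all tested genes called higher and 4.21% lower with FSH21. With FSH24 these shares were 5.12% higher and 3.3% lower. Summed oocyte markers were 3020 to 3370 CPM with FSH21 and 3000 to 3250 CPM with FSH24 at 10 ng/ml, below the 3430 to 3640 CPM of untreated follicles, with 0 of 7 genes called. At 1 ng/ml they were 2900 to 3170 CPM with FSH21 and 3010 to 3210 CPM with FSH24, within the untreated 2860 to 3310 CPM. Summed granulosa markers at 10 ng/ml were 5710 to 6160 CPM with FSH21, 5340 to 5800 CPM with FSH24 and 4730 to 5970 CPM untreated, with Foxl2 and Kitl called higher and Esr2 lower of 7 genes with each form. Summed theca markers were 1140 to 1880 CPM with FSH21, 1180 to 1800 CPM with FSH24 and 963 to 1230 CPM untreated, with Cyp17a1 and Star called higher of 6 genes. Most of that sum was Hsd3b1, at 952 to 1840 CPM across the 18 libraries. Hsd3b1 was not called by edgeR's test (adjusted p = 0.108 with FSH21 and 0.144 with FSH24). Cyp17a1 was low, at 4.88 ± 1.70 CPM with FSH21, 4.55 ± 1.07 CPM with FSH24 and 1.04 ± 0.0704 CPM untreated. Stroma markers were 2490 to 3280 CPM with FSH21, 2660 to 3750 CPM with FSH24 and 2670 to 4170 CPM untreated, with 0 of 6 called. Endothelial markers were 71.1 to 92.0 CPM with FSH21, 77.3 to 87.3 CPM with FSH24 and 71.8 to 107 CPM untreated, and immune markers 2.7 to 4.04 CPM with FSH21, 2.06 to 3.94 CPM with FSH24 and 1.55 to 3.96 CPM untreated, with none of the 9 measured genes called. At 1 ng/ml summed granulosa markers were 5250 to 6320 CPM with FSH21, 4280 to 5910 CPM with FSH24 and 5080 to 5910 CPM untreated. Kitl was called higher there with FSH21, 1 of 7 genes where 0.0908% of all genes were, and no granulosa marker with FSH24. No measured theca, stroma, endothelial or immune marker was called at that dose. Every FSH21 call at 1 ng/ml ended without FSH21 number 5 or untreated number 6. The part of these marker levels in the changes of the 7 genes was not tested.

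Across all 18 libraries, the genes whose log2 CPM followed each of the 7 most closely are given by Pearson's r as a description. The libraries fall into dose groups, so r can carry the difference between them, and r within groups was not computed. Spsb1 was closest to the semaphorin gene Sema3g (0.986), Myc (0.984) and Psd4 (0.982), all of which had negative log2 fold changes with either form at 10 ng/ml. Usp6nl was closest to the ankyrin gene Ank3 (0.982), the PI3 kinase regulatory subunit gene Pik3r1 (0.979) and Tbc1d4 (0.976). Scube1 had the integrin gene Itga6 (0.976) and Ccnjl (0.974) among its closest genes, and Cbfa2t3 was closest to Itga6 (0.981), Ccnjl (0.979) and Zmynd8 (0.978). Gask1b was closest to Maged2 (0.982), Mef2a (0.980) and Foxo6 (0.969). The nearest genes to Rasgrp3 were Rhox5 (0.922), Filip1 (0.900) and Gm32443 (0.899), with Rhox5 at a mean of only 0.325 CPM. Cited2 had the loosest partners, Cnot2 (0.819), Elfn1 (0.801) and Gm10130 (0.796).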

How the data were processed

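RNA was extracted on RNeasy columns and made into mRNA libraries with a NuGEN kit, per the labels' protocols. The authors deposited expected counts per gene, 1 column per library with the 4 lanes merged; the column names give RSEM as their source. STAR 2.7, FastQC, bcl2fastq and mm10 are named in the submitters' processing notes; annotation, RSEM version and strand setting are not given in the sources used here. The untreated column numbered 4 writes its treatment code differently from its titles and was matched by number and index. The deposited expected counts were rounded to whole numbers before the fit, since 33.9% of values above 0 had a fraction. Of 56691 gene identifiers, 52073 were found in GENCODE M21.

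Genes passing edgeR's filterByExpr by group (minimum count 10) were fitted over all 18 libraries in 6 groups with edgeR 4.0.16 (R 4.3.3): TMM scaling, robust quasi-likelihood fit, no block, Benjamini-Hochberg adjustment over 18727 genes, call at adjusted p under 0.05. SE is the absolute log2 fold change over the root of F, and intervals are 95%. The biological coefficient of variation was 0.135, and the scatter between libraries of one group was 9.3 to 25.1 times the Poisson variance. The code was tested on simulated data in which every gene had the same biological coefficient of variation. That checks the code and not its error rates on these data.

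For FSH21 at 10 ng/ml and its controls, the deviations of same-numbered libraries from their group means correlated at 0.126 to 0.206. In the other comparisons these correlations were also positive, at 0.0496 to 0.235, though not every pair exceeded 0.1. Libraries of different numbers were not compared in this way, so whether the numbers mark pairs was not settled. The main fit had no block, and a replicate block was run as an alternative.

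The 7 genes, the related-gene lists and the markers were chosen with earlier results of these data known. Named related genes are those called at 10 ng/ml; uncalled family paralogs were added after their values were seen. Likeness is Pearson's r of log2 CPM with a prior count of 2, the 3 highest per gene. A few genes that these rules name, and the list counts that need them, are not reported here. Alternatives were DESeq2 1.42.0, its size factors in edgeR, no filter beyond a count above 0, only the groups compared in the fit, a replicate block, and leaving out each library in turn.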

Additional observations from a re-analysis of the deposited data

How the results depend on the processing

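The calls of Scube1, Gask1b, Cbfa2t3, Spsb1 and Usp6nl with either form at 10 ng/ml, and of Rasgrp3 with FSH24, held under all 11 alternatives; that of Rasgrp3 with FSH21 held under 7 (log2 fold change 0.47 to 0.62, adjusted p 0.00479 to 0.108), and Cited2 was called under none (adjusted p 0.264 to 0.761 with FSH21 and 0.0726 to 0.46 with FSH24). The replicate block changed no call of the 7 genes at 10 ng/ml. With it the count of called genes was 2819 for FSH21 at 10 ng/ml against 1906, 2547 for FSH24 at 10 ng/ml against 1577, 226 for FSH21 at 1 ng/ml against 24, and still 0 for FSH24 at 1 ng/ml and for FSH21 against FSH24 at 10 ng/ml. With the replicate block, Eps8, Hdac1, Rab5a, Rabgef1, Rin2 and Cited1 were also called for FSH24 at 10 ng/ml. Leaving out single libraries gave 1250 to 1630 genes for FSH21 at 10 ng/ml (1250 without untreated number 4) and 982 to 1439 for FSH24 (1029 and 995 without FSH24 numbers 2 and 4, 982 without untreated number 4). It gave 0 to 21 for FSH21 at 1 ng/ml, 0 to 1 for FSH24 at 1 ng/ml and 0 to 1 for FSH21 against FSH24 at 10 ng/ml. FSH21 at 1 ng/ml also gave 59 genes with no filter, 107 with DESeq2 and 1 with only its 2 groups in the fit. DESeq2 gave 1 for FSH24 at 1 ng/ml and 5 between forms at 10 ng/ml. With FSH21 at 10 ng/ml, leave-one-out log2 fold changes of the uncalled Spsb2 (0.05) were −0.07 to 0.22, negative at −0.03, −0.02 and −0.07 in 3 cases, and those of Runx1t1 (−0.01) were −0.10 to 0.07, positive at 0.07, 0.02 and 0.01 in 3 cases. The Gask1b value at 1 ng/ml FSH21, 0.78, was 0.94 without untreated number 5 and 0.65 without untreated number 6. Tcf12, Rin2, Eea1, Gask1a, Fam20c and Dipk2a each lost a call in at least one form under a setting other than a left-out library, while Cited1 gained one with FSH21 in DESeq2 and without the filter, and Rab5a one with FSH24 in DESeq2. The causes were not tested. Rasgrp3 had the lowest counts of the 7 genes, 114 to 288 in a library, with an SE of 0.15 on the log2 scale, against 0.14 for Gask1b with FSH21 at 10 ng/ml.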
